A study of Mus musculus with 16 samples.

Results

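The mitosis genes described here are 37 genes whose products drive or carry out cell division: cyclins and kinases that start mitosis, the checkpoint and ubiquitin machinery that times chromosome separation, kinetochore proteins, spindle motors, and proteins of the midzone and the cleavage furrow. They were taken by symbol from a named list, and all 37 were found among the 49585 genes of the count tables. All 37 also passed the filter on low counts in each fit, with between 375 and 75214 reads per gene and library. The study counted RNA sequencing reads per gene in 16 libraries of sorted neutrophils from bones of C57BL/6 mice aged 8 to 12 weeks, 4 libraries in each of 4 groups. P2KO mice carried Vav:cre with floxed PHD2 alleles (Vav:cre-PHD2f/f), and P2H2KO mice carried Vav:cre with floxed PHD2 and HIF2 alleles (Vav:cre-PHD2/HIF2ff/ff). P2WT and P2H2WT were the wild-type controls of each line, and the labels do not say whether they carried floxed alleles or Cre. PHD2 is an oxygen-dependent prolyl hydroxylase that marks HIF alpha subunits for degradation, and HIF2 is a hypoxia-inducible factor. The Vav promoter drives Cre in blood-forming cells in general, so the alleles were not targeted in neutrophils alone.

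Mitosis genes are transcribed in a wave late in the cell cycle. In resting cells the DREAM complex holds many of them silent, and in dividing cells the factors B-MYB and FOXM1 join the same MuvB core and activate them. In bone marrow the granule-forming neutrophil precursors divide and mature neutrophils do not, while erythroblasts and other marrow progenitors divide as well. In RNA from a cell population, fewer dividing cells and less RNA per dividing cell cannot be told apart.

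Promoter windows are printed for 8 members so that matches to the elements of regulators of mitosis genes can be read in the letters. Whether these regulators had a part in how the 37 genes varied between libraries was not tested. The 8 were chosen with their motif matches known and are not representative of the members: 7 of the 8 hold a CHR match, against 11 of the 32 member windows that could be read. The cell cycle genes homology region (CHR) is the element bound by MuvB, and the CCAAT box is bound by NF-Y. Each window holds the 250 bases before the RefSeq start, 5′ to 3′ on the gene's strand, from GRCm38.p6. Capitals mark the letters TTTGAA (CHR) and CCAAT, each searched on both strands, so that TTCAAA and ATTGG are also capitals. The windows of Ccnb2 (chr9:70421555-70421804, minus strand), Cdk1 (chr10:69352913-69353162, minus), Cdc20 (chr4:118437344-118437593, minus), Ube2c (chr2:164769679-164769928, plus), Kif11 (chr19:37376132-37376381, plus), Top2a (chr11:99024190-99024439, minus), Mki67 (chr7:135716380-135716629, minus) and Cenpf (chr1:189688087-189688336, minus) follow.
Ccnb2: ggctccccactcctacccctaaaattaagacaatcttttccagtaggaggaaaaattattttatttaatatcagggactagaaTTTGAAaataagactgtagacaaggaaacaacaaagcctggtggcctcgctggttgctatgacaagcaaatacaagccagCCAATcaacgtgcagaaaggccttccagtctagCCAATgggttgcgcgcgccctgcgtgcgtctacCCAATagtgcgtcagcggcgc
Cdk1: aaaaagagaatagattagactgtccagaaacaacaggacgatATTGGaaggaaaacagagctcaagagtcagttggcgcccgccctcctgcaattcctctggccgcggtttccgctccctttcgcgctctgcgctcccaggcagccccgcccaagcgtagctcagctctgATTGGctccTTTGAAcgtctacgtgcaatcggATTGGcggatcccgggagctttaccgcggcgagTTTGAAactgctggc
Cdc20: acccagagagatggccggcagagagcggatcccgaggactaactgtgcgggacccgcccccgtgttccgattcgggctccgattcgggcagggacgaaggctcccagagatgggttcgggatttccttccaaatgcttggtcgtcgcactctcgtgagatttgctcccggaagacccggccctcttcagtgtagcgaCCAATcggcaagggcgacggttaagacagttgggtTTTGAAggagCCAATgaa
Ube2c: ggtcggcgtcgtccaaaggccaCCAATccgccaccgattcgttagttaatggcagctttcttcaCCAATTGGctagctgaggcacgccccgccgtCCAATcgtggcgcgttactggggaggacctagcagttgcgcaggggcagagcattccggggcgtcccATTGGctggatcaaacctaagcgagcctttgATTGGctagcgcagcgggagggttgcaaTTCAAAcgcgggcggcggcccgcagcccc
Kif11: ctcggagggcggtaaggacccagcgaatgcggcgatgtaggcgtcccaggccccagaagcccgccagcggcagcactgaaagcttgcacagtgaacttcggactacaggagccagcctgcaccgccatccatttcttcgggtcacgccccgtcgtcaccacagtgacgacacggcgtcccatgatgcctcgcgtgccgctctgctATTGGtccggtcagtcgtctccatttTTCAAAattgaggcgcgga
Top2a: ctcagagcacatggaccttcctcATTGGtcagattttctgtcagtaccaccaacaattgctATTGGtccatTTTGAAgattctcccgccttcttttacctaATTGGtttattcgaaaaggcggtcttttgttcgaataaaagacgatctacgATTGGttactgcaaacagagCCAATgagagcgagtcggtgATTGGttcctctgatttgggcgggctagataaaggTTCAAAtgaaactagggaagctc
Mki67: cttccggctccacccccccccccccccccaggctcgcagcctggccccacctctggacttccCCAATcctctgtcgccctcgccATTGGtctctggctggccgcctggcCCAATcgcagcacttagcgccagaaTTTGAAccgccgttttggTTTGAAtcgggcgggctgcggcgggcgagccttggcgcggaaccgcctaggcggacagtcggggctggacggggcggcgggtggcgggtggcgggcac
Cenpf: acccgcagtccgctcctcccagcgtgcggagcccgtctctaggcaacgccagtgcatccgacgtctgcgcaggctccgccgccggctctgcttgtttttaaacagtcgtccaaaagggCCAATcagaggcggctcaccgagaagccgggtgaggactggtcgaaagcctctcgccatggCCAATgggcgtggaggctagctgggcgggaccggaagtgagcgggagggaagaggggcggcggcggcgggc

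RefSeq windows matched 32 of the 37 members, and Ccna2, Aurkb, Incenp, Tpx2 and Kif20a had none in the table. A CHR match was present in 11 of the 32 windows, 34.4%, against 16.3% of the windows of all 27025 genes. CCAAT was present in 25 of the 32, 78.1%, against 34.2% of all windows. At least 2 CCAAT boxes were present in 17 of the 32, 53.1%, against 10.4% of all windows. Both motifs occurred in 10 member windows, 31.2%, against 5.67% of all windows. These shares were not particular to the members. CCAAT was present in 62.5% of the windows of 48 other mitosis genes and in 62.5% of those of 32 DNA replication genes. A CHR match was present in 37.5% and 9.38% of these windows, at least 2 CCAAT boxes in 33.3% and 25%, and both motifs in 27.1% and 9.38%. In Cdk1 the CHR matches began 71 and 15 bases before the start, and in Cdc20 the match began 18 bases before it. Top2a and Ube2c held 6 CCAAT matches each, of which a pair in Ube2c share bases on opposite strands. Cenpf held 2 CCAAT boxes and no CHR match. Neither motif was found in 6 member windows, those of Anln, Birc5, Ndc80, Nuf2, Nusap1 and Pttg1. The bases just after the RefSeq start were found in a GENCODE M21 transcript of the gene for 23 of the 32 windows. Anln, Birc5, Kif11 and Mki67 were among the members without such a match. Absent motifs and distances to the start depend on the start used. The letters GCGGGAA, an E2F-like element searched on both strands, were in 0 member windows, in 31.2% of the windows of 32 DNA replication genes and in 3.86% of all windows. These matches are letters in a window and no measure of binding.

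The libraries held between 23450746 and 28601284 counted reads. Libraries of the same group correlated at r of 0.9769 to 0.993 on the log2 scale (24 pairs) and differed by more than sampling noise, with a chi-square of at least 10.6 per degree of freedom. All 32 neutrophil granule and maturity markers had reads in every library. The 16 erythroid markers also had reads in every library, with a summed level of 28252 to 57316 CPM (reads relative to the scaled library size, in the usual unit). The summed levels were 26313 to 64864 CPM for late granule, 15390 to 42573 for mature neutrophil and 2842 to 4460 for early granule markers. Every B lineage, T and NK, stem and progenitor, monocyte and megakaryocyte marker listed also had reads in every library. The presence of reads thus sets no cell type apart. The gene-level counts do not check the genotype labels: Egln1, which encodes PHD2, stood at 48.7 ± 2.21 CPM (SD, n = 4) in P2WT and 49.5 ± 6.4 CPM (SD, n = 4) in P2KO. In the P2H2 line Egln1 stood at 52.2 ± 2.97 CPM in the controls and 53.2 ± 4.39 CPM in P2H2KO. Epas1, which encodes HIF2 alpha, stood at 3.56 ± 1.02 CPM in P2H2WT and 5.65 ± 2.17 CPM in P2H2KO. In the P2 line it stood at 10.03 ± 1.4 CPM in P2WT and 12.3 ± 8.22 CPM in P2KO. The control groups of the lines thus did not overlap for Epas1, with 8.696 to 11.32 CPM in P2WT and 2.554 to 4.975 CPM in P2H2WT. The cause of that difference was not tested. The labels do not give which exons the floxed alleles remove, and group names below are those of the labels.

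The library titles carry a suffix, m or f, whose meaning the labels do not state. The suffix was m in 10 libraries and f in 6, with 3 m and 1 f in P2KO, 2 and 2 in P2WT, 2 and 2 in P2H2KO, and 3 and 1 in P2H2WT. Library values below are in the order of the title numbers. These are 3 (m), 4 (m), 7 (f) and 10 (f) in P2WT, 1 (m), 5 (m), 6 (m) and 9 (f) in P2KO, 13 (m), 14 (m), 16 (f) and 18 (m) in P2H2WT, and 11 (m), 12 (m), 15 (f) and 17 (f) in P2H2KO. Where p-values are given they measure the spread between these libraries, and the labels do not say that each came from a separate mouse.

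The 37 mitosis genes together took 7157 to 11379 CPM per library. Their summed level was 9773 ± 1128 CPM (SD, n = 4) in P2WT, 10487 ± 1257 in P2KO, 8792 ± 908 in P2H2WT and 8698 ± 1629 in P2H2KO, and the 4 ranges overlapped. Per kb of exonic length, the mean levels over 16 libraries ran from 4.51 CPM per kb for Nek2, a centrosome kinase, and 8.84 for Pttg1 (securin, the inhibitor of separase) to 166.8 for Ccnb2. Mki67 (154.9), Ccna2 (154), Ube2c (134.1) and Top2a (131.6) came next below Ccnb2 on this scale. Ccnb1, the other B-type cyclin of mitosis, stood at 33.3 CPM per kb. Exonic length here counts the bases of all annotated exons of a gene, so this order depends on the annotation. It was 4217 bases for Ccnb1 and 4083 for Ccna2, while their longest coding transcripts have 2489 and 2965. For Ccnb2 both lengths were 1531 bases. The order by transcript length may differ.

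**Figure D1:**
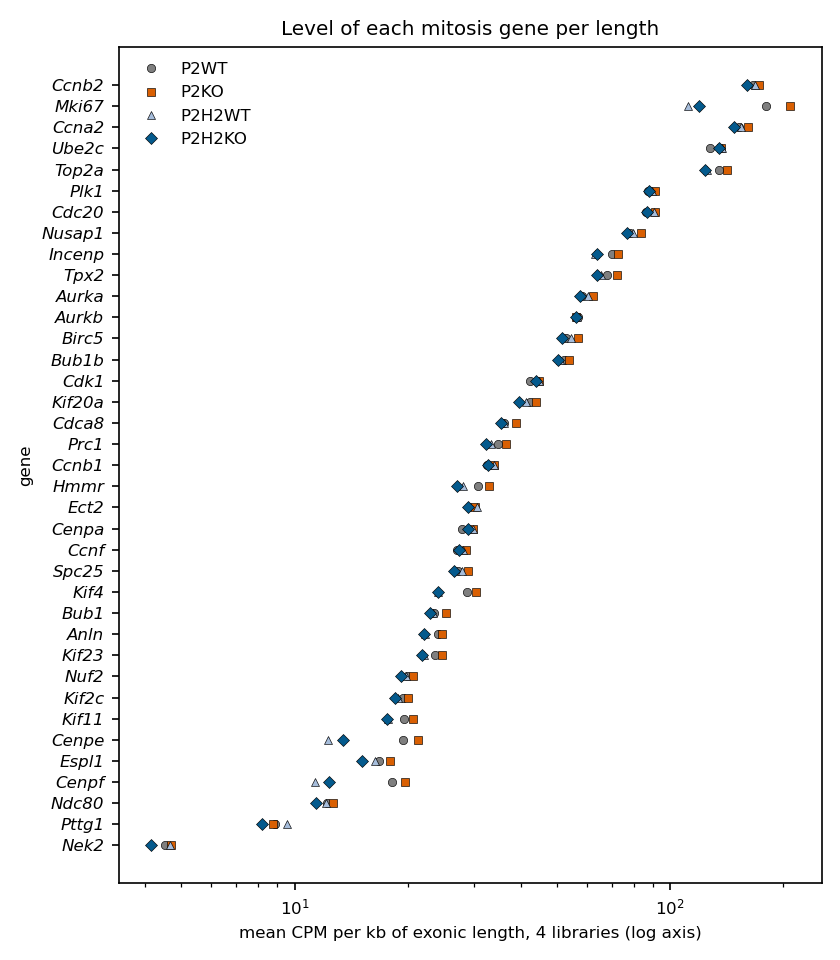
Mean CPM per kb of exonic length (log axis) for each of the 37 genes, with 1 marker per group (mean of 4 libraries). Genes run from Nek2 (4.51 CPM per kb over all libraries) to Ccnb2 (166.8), and for Mki67, Cenpf and Cenpe the P2 line markers lie to the right of the P2H2 line markers.

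PHD2 deficiency was examined first, by comparing P2KO with P2WT. No mitosis gene passed the test: 0 of 37 reached an adjusted p of 0.05 by edgeR's quasi-likelihood test, beside 6 of 13734 genes tested (0.0437%). At an unadjusted p under 0.05 the count was 0 of 37, beside 3.49% of all genes, and DESeq2 also called 0 of the 37. The fitted values lay close together on the high side, with 35 of 37 above 0 (57.8% of all genes were above 0) and a median log2 fold change of 0.089 (0.02 over all genes). They ranged from -0.006 to 0.222, and the groups overlapped for all 37 genes (0.859% of all genes were higher without overlap and 1.39% lower). The 95% intervals held 0 for all 37 and lay within 1.5-fold in either direction for 36 of them, all but Mki67.

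Double deficiency was examined by comparing P2H2KO with P2H2WT, where again 0 of 37 mitosis genes passed the adjusted threshold, beside 10 of 13435 genes (0.0744%). With no adjustment, 0 of 37 had a p under 0.05, beside 2.63% of all genes, and DESeq2 called 0 of the 37. Here 5 members lay above 0 and 32 below (50.5% and 49.5% of all genes), with a median log2 fold change of -0.032 (0.001 over all genes) and a range of -0.22 to 0.134. All 37 intervals of 95% held 0, and 34 lay within 1.5-fold in either direction, the exceptions being Mki67, Cenpe and Cenpf. The difference of the 2 effects, the P2 line's less the P2H2 line's with 16 libraries fitted together, was called for 0 members and for 0 of 14080 genes (0%). At an unadjusted p under 0.05 the difference counted 0 members, beside 1.51% of all genes. Its members' values had a median of 0.118 (0.001 over all genes), and 35 of 37 lay above 0 (50.4% of all genes). Leaving out 1 library at a time moved that median from 0.047 (without P2H2KO replicate 15) to 0.206 (without P2KO replicate 6) and the members above 0 from 30 to 37. It was also moved by over 1.5 times without P2KO replicate 1 (0.076), P2KO replicate 9 (0.073), P2H2WT replicate 14 (0.075) or P2H2KO replicate 11 (0.185). There were 30 members above 0 in the P2 line and below 0 in the P2H2 line, 5 above 0 in both lines, and 2, Pttg1 and Aurkb, below 0 in both. Where the erythroid markers are counted in the same way, 16 of 16 lay above 0 in the P2 line with a median of 0.138, and 15 of 16 lay below 0 in the P2H2 line with a median of -0.137, with 0 called in either. The part of the erythroid markers in the mitosis values was not tested.

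**Figure D2:**
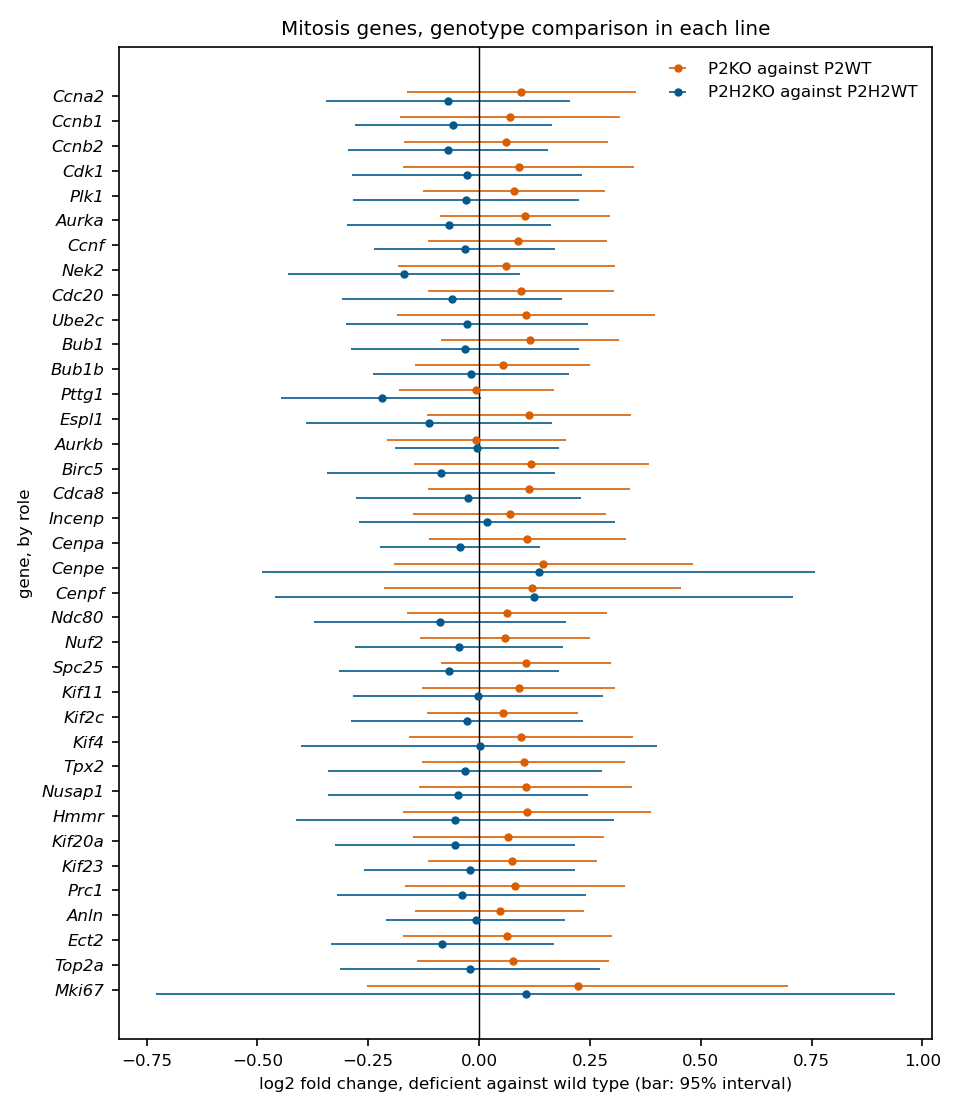
Log2 fold change (points) and 95% interval (bars) of each mitosis gene, deficient against wild-type libraries, for the P2 line (orange) and the P2H2 line (blue). Every interval holds 0, and the longest bars belong to Mki67, Cenpe and Cenpf.

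These directions rested on which libraries were used. With the 10 m libraries alone, an alternative chosen after the data were seen, 3 of 37 members lay above 0 in the P2 line with a median of -0.049, and 35 of 37 lay above 0 in the P2H2 line with a median of 0.088. Without P2KO replicate 6, 37 of 37 lay above 0 in the P2 line with a median of 0.168, and 11 reached an unadjusted p under 0.05 with 0 called. That median was 0.045 without P2KO replicate 9, 0.057 without P2WT replicate 10, 0.059 without P2WT replicate 7 and 0.143 without P2WT replicate 4, with 34 to 36 members above 0. In the P2H2 line 32 of 37 lay above 0 without P2H2KO replicate 15 and 0 of 37 without P2H2KO replicate 12.

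Among the kinases and cyclins that start mitosis, all 8 members lay above 0 in the P2 line, with log2 fold changes from 0.061 to 0.103, and all 8 below 0 in the P2H2 line, from -0.169 to -0.028, with 0 called. Cdk1, the kinase that drives entry into mitosis, measured 206, 232, 204 and 195 CPM in P2WT, 234, 229, 171 and 250.1 in P2KO, 232, 235, 211 and 206 in P2H2WT, and 253, 224, 174 and 215 in P2H2KO. Its lowest values were P2KO replicate 6 and P2H2KO replicate 15, and the groups overlapped in both lines. The log2 fold change of Cdk1 was 0.089 (SE 0.115) in the P2 line and -0.028 (SE 0.115) in the P2H2 line. Ccnb1, its cyclin partner, measured 132, 153, 133 and 132 CPM in P2WT, 155, 146, 112 and 159 in P2KO, 154, 148, 144 and 128 in P2H2WT, and 152, 142, 117 and 140.5 in P2H2KO. The same 2 libraries were lowest for Ccnb1. Plk1, a kinase of centrosome maturation and checkpoint recovery, measured 192, 208, 181 and 186 CPM in P2WT, 215, 201, 169.5 and 219 in P2KO, 207, 213, 192 and 178 in P2H2WT, and 219, 212, 162 and 180.4 in P2H2KO. Aurka, the centrosome kinase activated by Tpx2, measured 149.7, 155, 142 and 143 CPM in P2WT, 168, 164, 132 and 167 in P2KO, 154, 162, 154 and 142 in P2H2WT, and 169, 149, 123 and 143 in P2H2KO. Aurka had the third smallest p of the members in the P2 line (unadjusted p = 0.255, adjusted p = 1 by edgeR's quasi-likelihood test), with a log2 fold change of 0.103 (SE 0.085), and P2KO replicate 6 lay below all P2WT libraries. Nek2 measured 20.1, 20.3, 22 and 19.4 CPM in P2WT, 22.4, 20.1, 17.2 and 25 in P2KO, 22.3, 22.6, 21.2 and 18.1 in P2H2WT, and 19.9, 21.4, 15.8 and 17.7 in P2H2KO. Its log2 fold change in the P2H2 line was -0.169 (SE 0.116), with overlapping groups.

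The checkpoint and anaphase genes held the members with the smallest p in both lines. Bub1, a kinase of the spindle checkpoint, measured 109.9, 112, 98.6 and 89.4 CPM in P2WT, 116, 118, 97.7 and 108 in P2KO, 106, 114, 92.5 and 95 in P2H2WT, and 109.8, 113, 86.1 and 90.02 in P2H2KO. Its log2 fold change in the P2 line was 0.114 (SE 0.0892), with the smallest unadjusted p of the 37 there, 0.232 (adjusted p = 1 by edgeR's quasi-likelihood test), and the groups overlapped. Pttg1 measured 18.3, 17.4, 17.7 and 17.3 CPM in P2WT, 18.4, 19.3, 15.4 and 16.9 in P2KO, 18, 20.4, 19.1 and 18.8 in P2H2WT, and 17.6, 17.1, 13.5 and 17.4 in P2H2KO. All 4 P2H2KO libraries lay below all 4 P2H2WT libraries, which held for 1 member of 37 and for 0.811% of all genes, and the P2H2KO replicate 15 stood lowest. The log2 fold change of Pttg1 in the P2H2 line was -0.22 (SE 0.1), with an unadjusted p of 0.0547 and an adjusted p of 1 by edgeR's quasi-likelihood test, and it was -0.134 without replicate 15. The difference of the effects for Pttg1 was 0.205 (SE 0.125), with an unadjusted p of 0.122. Espl1, the separase that cleaves cohesin, measured 146, 164, 142 and 134 CPM in P2WT, 162, 166, 128 and 173 in P2KO, 148, 166, 128 and 131 in P2H2WT, and 147, 150, 115 and 118 in P2H2KO. Its log2 fold change was 0.113 (SE 0.102) in the P2 line and -0.113 (SE 0.123) in the P2H2 line. Cdc20, the activator of the anaphase promoting complex, measured 164, 178, 155 and 146 CPM in P2WT, 184, 172, 144 and 180 in P2KO, 176, 191, 158 and 153 in P2H2WT, and 176, 179.5, 138 and 155 in P2H2KO. Ube2c, the ubiquitin-conjugating enzyme of that complex, measured 326, 366, 308 and 325 CPM in P2WT, 369.6, 378, 263 and 406 in P2KO, 358, 388, 360.4 and 326 in P2H2WT, and 414, 362, 281 and 347 in P2H2KO. In both genes P2KO replicate 6 and P2H2KO replicate 15 were the 2 lowest of the 16 libraries.

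The chromosomal passenger complex corrects kinetochore attachments and later acts at the cleavage furrow. Its kinase Aurkb measured 158, 178, 166 and 168 CPM in P2WT, 172, 167, 139.5 and 185 in P2KO, 173, 172, 168 and 152 in P2H2WT, and 179.8, 171, 150 and 162 in P2H2KO. Aurkb lay close to 0 in both comparisons, with log2 fold changes of -0.006 (SE 0.0893) and -0.004 (SE 0.0823) in the P2 and P2H2 lines. Birc5 (survivin), the subunit that targets the complex to centromeres, measured 189, 203, 162 and 164 CPM in P2WT, 202, 213, 153 and 206 in P2KO, 185, 200.1, 182 and 176 in P2H2WT, and 206, 185, 143 and 165 in P2H2KO. P2KO replicate 6 and P2H2KO replicate 15 stood lowest of their groups for Birc5, and the groups overlapped. The log2 fold changes of Birc5 were 0.118 (SE 0.117) and -0.085 (SE 0.114).

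Kinetochore genes link chromosomes to the spindle. Ndc80, the microtubule-binding subunit that gives its complex its name, measured 81.3, 89.1, 73.8 and 72.1 CPM in P2WT, 88.5, 87, 67.8 and 84.8 in P2KO, 85.5, 86.3, 71.1 and 71.3 in P2H2WT, and 85, 82.7, 61.3 and 66.6 in P2H2KO. Spc25, another subunit of the Ndc80 complex, measured 87.6, 94.6, 84 and 80.5 CPM in P2WT, 100.4, 96.9, 78.8 and 94.3 in P2KO, 96.7, 95, 80.5 and 83.9 in P2H2WT, and 95.8, 91.8, 70.9 and 81.2 in P2H2KO. The log2 fold change of Spc25 in the P2 line was 0.106 (SE 0.0851), with overlapping groups. Cenpf, a large kinetochore and nuclear matrix protein, measured 301, 352, 230.2 and 241 CPM in P2WT, 296, 342, 255 and 322 in P2KO, 179, 226, 121 and 173 in P2H2WT, and 236, 253, 150.2 and 121 in P2H2KO. Every P2WT library lay above every P2H2WT library for Cenpf, and every P2KO library above every P2H2KO library. Within the lines the groups overlapped, with log2 fold changes of 0.12 (SE 0.148) and 0.124 (SE 0.259).

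Of the spindle motors and assembly factors, 6 of 6 lay above 0 in the P2 line and 5 of 6 below 0 in the P2H2 line. Kif11, the motor that pushes the spindle poles apart, measured 147, 166, 137 and 134 CPM in P2WT, 158, 163, 131 and 166 in P2KO, 137, 148, 120.1 and 124 in P2H2WT, and 155, 145, 112 and 115 in P2H2KO. Tpx2, the microtubule nucleator that activates Aurka, measured 323, 360.4, 292 and 294 CPM in P2WT, 351, 356, 285 and 359.6 in P2KO, 312, 351, 279 and 280 in P2H2WT, and 352, 334, 248 and 260.2 in P2H2KO. These genes followed the other members most closely, and their lowest libraries were P2H2KO replicates 15 and 17. The log2 fold changes of Kif11 were 0.089 (SE 0.0963) and -0.002 (SE 0.125). In cytokinesis, Prc1, the bundler of midzone microtubules, measured 285, 316, 275 and 271 CPM in P2WT, 311, 309, 241 and 346 in P2KO, 279.7, 313, 245 and 256 in P2H2WT, and 307, 289, 220.2 and 249 in P2H2KO. Anln (anillin), the scaffold of the contractile ring, measured 213, 243, 204 and 213 CPM in P2WT, 234, 237, 197 and 228 in P2KO, 199, 209.8, 195 and 203 in P2H2WT, and 227, 207, 176 and 192 in P2H2KO. The spread of Anln was among the smallest, with an SD of 0.104 in log2 units around the group means. Top2a, the topoisomerase that untangles sister chromatids, measured 1257, 1327, 1182 and 1112 CPM in P2WT, 1304, 1312, 1131 and 1358 in P2KO, 1169, 1281, 1025 and 1055 in P2H2WT, and 1232, 1284, 976 and 974 in P2H2KO. Mki67, the coat protein of mitotic chromosomes known as Ki-67, measured 2129, 2291, 1276 and 1552 CPM in P2WT, 2059, 2597, 1608 and 2133 in P2KO, 938, 1550, 710 and 1284 in P2H2WT, and 1568, 1834, 811 and 595 in P2H2KO. Its values spread most of all members, from 595 to 2597 CPM, with an SD of 0.464 in log2 units around the group means. The log2 fold change of Mki67 was 0.222 (SE 0.21) in the P2 line and 0.105 (SE 0.37) in the P2H2 line, smaller than its spread between libraries.

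The members varied together from library to library. For 25 of 37, the deviations from the group means over the 16 libraries correlated with the mean deviation of the other members with r of 0.9 or more, with a median r of 0.942. Tpx2 (r = 0.992) and Kif11 (0.991) followed the others most closely, and Pttg1 (0.636), Nek2 (0.735) and Ccnf (0.741), a subunit of an SCF ubiquitin ligase, followed them least. Pttg1 and Nek2 were also the members with the lowest levels per length. P2KO replicate 6 lay lowest, 0.253 log2 units below its group mean (-0.253), followed by P2H2KO replicate 15 (-0.235). P2H2KO replicates 11 (0.211) and 12 (0.168) lay farthest above their group mean. The P2H2KO group thus held the libraries farthest above their group mean, both with the suffix m, and libraries below it with the suffix f, 15 and 17 (-0.144). In level the order differed. The highest mean log2 CPM of the members was 7.681 in P2KO replicate 9 (f), against 7.605 and 7.563 in P2H2KO replicates 11 and 12.

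**Figure D3:**
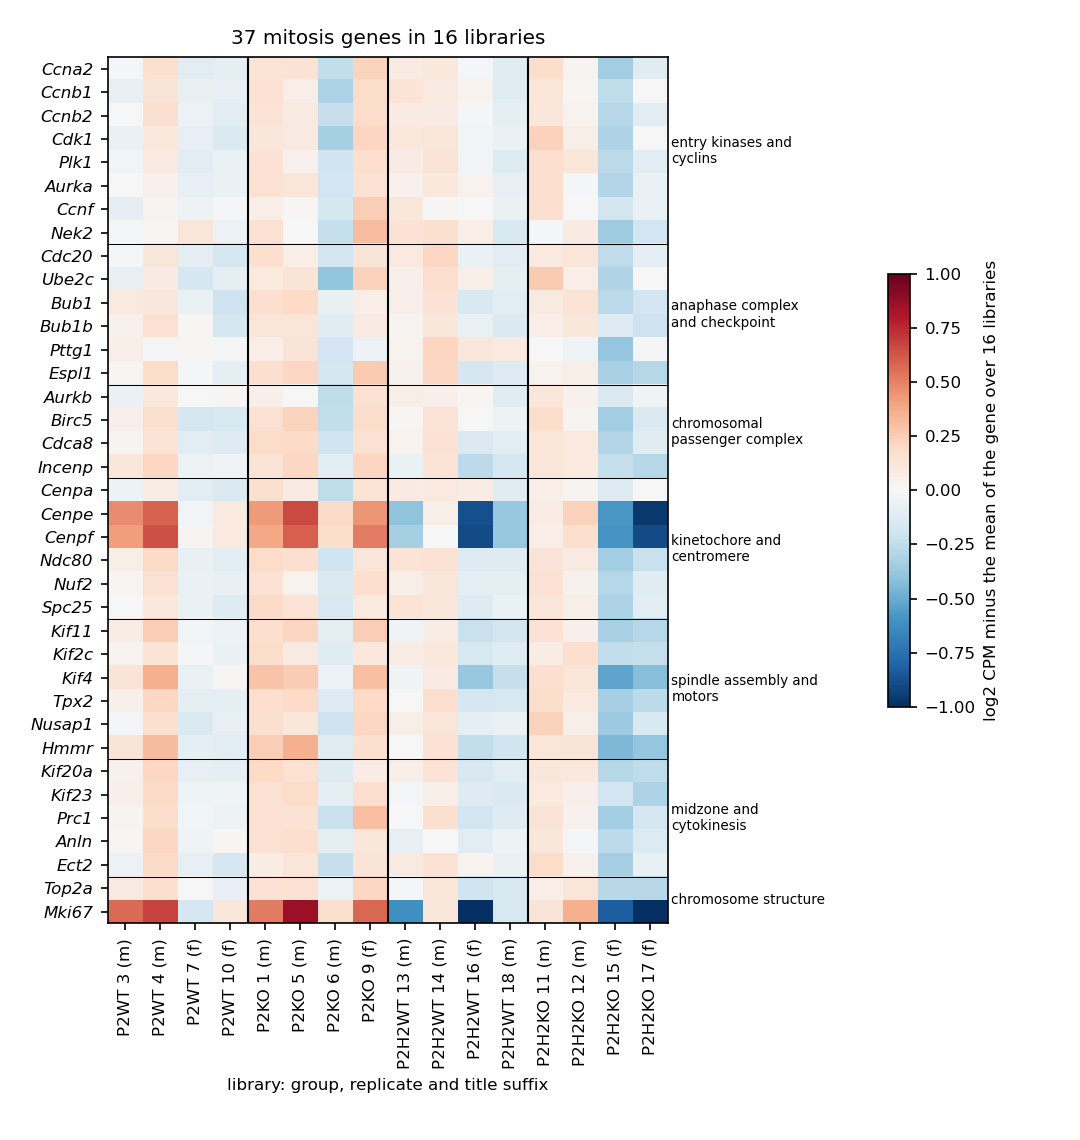
Log2 CPM of each mitosis gene minus its mean over 16 libraries (colour, values beyond 1 in either direction drawn at the end of the scale), with genes grouped by role and libraries by group, replicate and title suffix. The column of P2H2KO 15 is blue throughout and that of P2KO 6 for most genes, with Cenpe, Cenpf and Mki67 among the exceptions, and the rows of Cenpe, Cenpf and Mki67 differ between the P2 and P2H2 lines.

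Fitted over all 16 libraries with the groups as terms, 35 of 37 members were higher in m than in f libraries (48.6% of all genes were), with a median log2 difference of 0.142 (-0.005 over all genes). This comparison was chosen after the data were seen. None of the members passed an adjusted p of 0.05 by edgeR's quasi-likelihood test, beside 0.163% of all genes, and 16 of 37 had an unadjusted p under 0.05, beside 17.5% of all genes. Cenpe had the smallest p, with a log2 difference of 0.529 (SE 0.126, adjusted p = 0.0878). Mki67 (0.697, SE 0.178) and Cenpf (0.481, SE 0.124) came next. Aurkb (0), Ccnf (0.001) and Nek2 (-0.003) had the values closest to 0. The members lay below their group mean in 5 of 6 f libraries and above it in 8 of 10 m libraries, the exception among f libraries being P2KO replicate 9. The 16 erythroid markers were all higher in m libraries, with a median of 0.254 and 0 called.

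Over the 16 libraries the members' mean deviation was correlated with that of the erythroid markers and nearly uncorrelated with that of the early granule markers. The correlation with the erythroid list was r = 0.96 (Spearman's rho 0.92), and 0.94 without the 2 libraries farthest from the median. High values were not particular to that list. The deviations gave r = 0.96 for activators of mitosis transcription, 0.95 for DNA replication genes and 0.89 for brakes on the cell cycle. They gave 0.64 each for the B lineage and the T and NK lists, and 0.46 for the stem and progenitor list. Within a line r was taken on mean log2 CPM and not on deviations, so it includes the difference between the genotype groups. For the erythroid list it was 0.98 over the 8 libraries of the P2 line and 0.94 over those of the P2H2 line. With the early granule list (Elane, Mpo and others), the deviations gave r = -0.03 (rho -0.04). In mean log2 CPM it was 0.27 and -0.43 in the P2 and P2H2 lines. The early granule list was not checked as a measure of dividing neutrophil precursors. With the late granule list the deviations gave r = -0.79 (rho -0.8), and with the mature neutrophil list -0.69 (rho -0.67). These correlations compare 16 libraries that share their scaling to a common total, and are given as a description with no p. P2KO replicate 6 was also low for the erythroid list (-0.518) and highest for the late granule (0.8) and mature neutrophil lists (0.866). P2H2KO replicate 15 had the lowest erythroid deviation (-0.555). Summed erythroid levels were 40988 ± 6117 CPM (SD, n = 4) in P2WT, 43080 ± 9805 in P2KO, 48141 ± 7201 in P2H2WT and 42294 ± 10740 in P2H2KO.

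**Figure D4:**
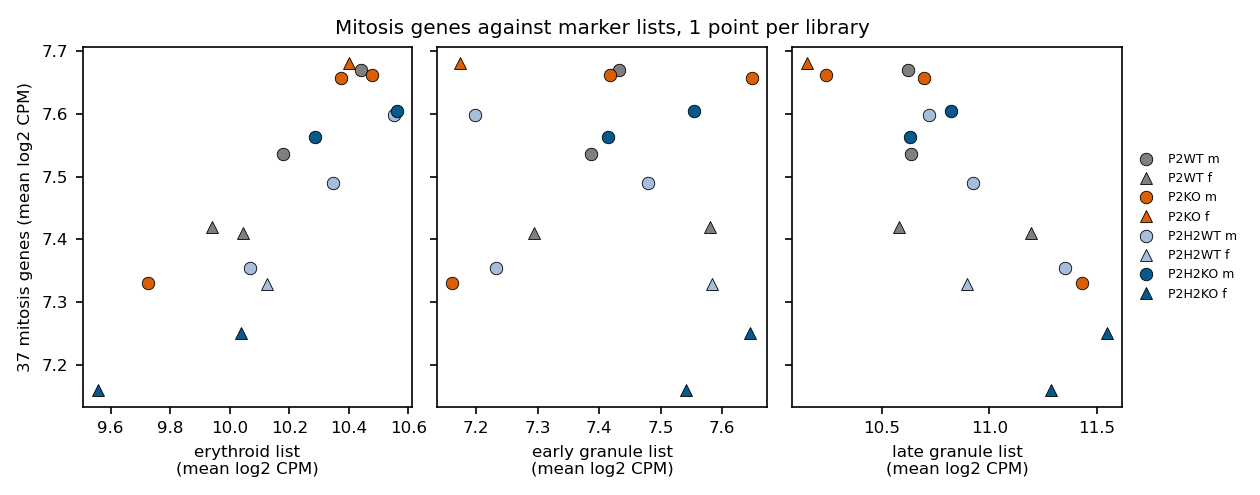
Mean log2 CPM of the 37 mitosis genes against the mean log2 CPM of the erythroid, early granule and late granule lists, 1 point per library, coloured by group and shaped by title suffix. The points rise along the erythroid axis and descend along the late granule axis. Along the early granule axis the lines share no slope, with r of 0.27 in the P2 line and -0.43 in the P2H2 line. Deviations from the group means, which are not drawn, gave r = 0.96 for the erythroid, -0.03 for the early granule and -0.79 for the late granule list.

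Of 12044 other genes with a mean of at least 1 CPM, the 10 most like the members' mean deviation over 16 libraries included 3 further mitosis genes: Kif22, a chromosome arm motor (r = 0.996), Ncaph, a condensin subunit (0.991), and Sgo1, the protector of centromeric cohesion (0.984). The other genes were Wdhd1, a replisome protein (0.993), Mfsd2b, a sphingosine 1-phosphate exporter of red cells and platelets (0.99), Cul4a, a ubiquitin ligase scaffold (0.988), Gclc, the catalytic subunit of glutathione synthesis (0.987), and Abcg4, Brca1 and Spire1 (0.985 each).

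The rest of the division machinery was read from lists of further genes. Of 58 other mitosis genes, 0 were called in either line. In the P2 line 57 of 58 lay above 0, with a median log2 fold change of 0.084, and in the P2H2 line 14 of 58, with a median of -0.037. Their mean deviation correlated with that of the 37 members at r = 0.996. All 40 DNA replication genes lay above 0 in the P2 line (median 0.07) and 39 of 40 below 0 in the P2H2 line (median -0.072), with 0 called. Rrm2, the regulated subunit of ribonucleotide reductase, had log2 fold changes of 0.129 (SE 0.135) and -0.082 (SE 0.145). Rrm1, its catalytic partner, had 0.091 (SE 0.11) and -0.076 (SE 0.124). Among 13 activators of mitosis transcription, from the FOXM1, B-MYB, MuvB, E2F and NF-Y families, 0 were called, with 11 above 0 in the P2 line and 4 in the P2H2 line. E2f2, the list's gene with the highest CPM, had log2 fold changes of 0.114 (SE 0.108) and -0.065 (SE 0.115). Rbbp4, a histone-binding MuvB subunit, had 0.074 (SE 0.0817) and -0.048 (SE 0.1). Of 19 brakes on the cell cycle, 17 were tested and 0 called, with 11 above 0 in the P2 line and 9 in the P2H2 line. Fzr1, the activator of the anaphase promoting complex in G1, had 0.105 (SE 0.147) and -0.1 (SE 0.174), and Btg2, an antiproliferative gene, had 0.107 (SE 0.0741) and -0.078 (SE 0.0995). Of 14 subunits of the anaphase promoting complex 0 were called, and their medians were 0.021 and -0.024. Unlike most members, these subunits correlated with the members' deviation at only r = 0.52 (0.33 without the 2 farthest libraries).

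Across the lines, 3 members, singled out after their values were seen, stood apart from the other 34. The lines had separate count tables, and the line cannot be told apart from any difference in handling. These comparisons share the P2WT and P2KO libraries with those above. Between P2WT and P2H2WT, 0 of 37 members passed the adjusted threshold, beside 32 of 14080 genes (0.227%), and 2 had an unadjusted p under 0.05, beside 10% of all genes. Cenpf was 1.61-fold higher in P2WT (log2 0.685, SE 0.228, adjusted p = 0.251 by edgeR's quasi-likelihood test). It was the only member whose groups did not overlap, which held for 5.18% of all genes in that direction. Cenpe, the kinetochore motor that carries chromosomes to the spindle equator, was 1.59-fold higher (log2 0.668, SE 0.241, adjusted p = 0.302), and its groups overlapped. Mki67 was 1.62-fold higher (log2 0.693, SE 0.328, adjusted p = 0.501). The other 34 members lay between -0.112 and 0.25, and 21 of the 37 lay above 0 (10 without P2WT replicate 4), beside 48.3% of all genes. With the title suffix as a covariate Cenpf (0.811, adjusted p = 0.0389) and Cenpe (0.805, adjusted p = 0.0417) were called, beside 124 genes in all.

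Between P2KO and P2H2KO, 0 of 37 members passed the adjusted threshold, beside 130 of 14080 genes (0.923%), and 3 had an unadjusted p under 0.05, beside 15.8% of all genes. Those 3 were Cenpf (log2 0.674, SE 0.228), Cenpe (0.671, SE 0.241) and Mki67 (0.805, SE 0.328). Cenpf was the only member without overlap, beside 4.42% of all genes. All 37 members lay above 0, beside 51.2% of all genes, with a median of 0.129. Leaving out 1 library at a time gave medians from 0.059 (without P2H2KO replicate 15) to 0.211 (without P2H2KO replicate 11), and the members above 0 numbered 30 without P2KO replicate 1, P2KO replicate 9 or P2H2KO replicate 15. The median was also moved by over 1.5 times without P2KO replicate 1 (0.066), P2KO replicate 5 (0.08), P2KO replicate 6 (0.21) or P2H2KO replicate 17 (0.085). The 3 members with an unadjusted p under 0.05 became 15 without P2KO replicate 6, 9 without P2H2KO replicate 11, 6 without P2H2KO replicate 12, 5 without P2H2WT replicate 14, 2 without P2KO replicate 5 or P2H2KO replicate 15 and 1 without P2H2KO replicate 17. With m libraries alone 8 of 37 lay above 0, with a median of -0.064, and Cenpf stood at 0.261 and Cenpe at 0.265.

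Cenpf, Mki67 and Cenpe also have the longest coding transcripts of the members, 11130, 10061 and 7910 bases. Over the 37 members, transcript length and the log2 difference between lines were related by Spearman's rho of 0.63 for the wild-type libraries and 0.63 for the deficient ones. Without these 3 genes rho was 0.52 and 0.53. Over all 12564 genes with a length it was 0.38 and 0.24. Espl1, the next longest member at 6658 bases, had differences of 0.03 and 0.246. The genes are not independent replicates, and the relation is given as a description. Relative to Top2a in the same library, Mki67 stood between 1.08 and 1.98 in P2 line libraries and between 0.611 and 1.43 in P2H2 line libraries. The part of transcript length in the differences was not tested.

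**Figure D5:**
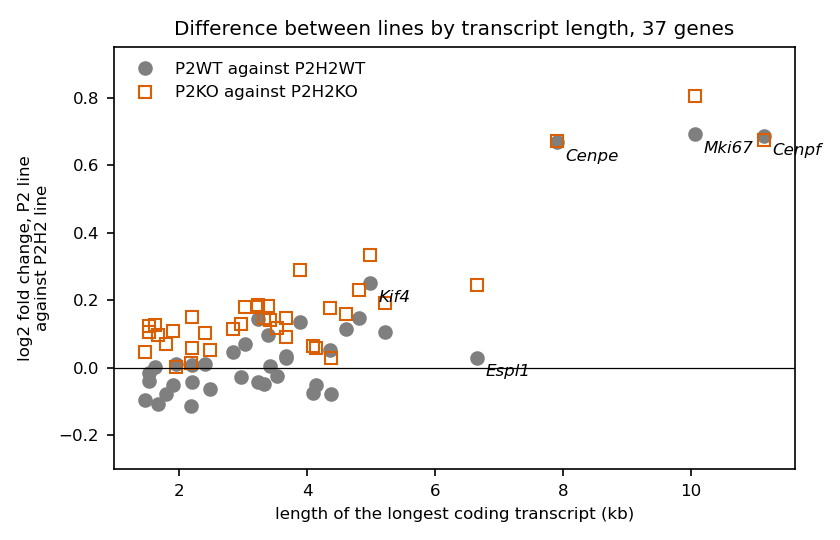
Log2 fold change between the lines (P2WT against P2H2WT, grey circles, and P2KO against P2H2KO, orange squares) against the length of the longest coding transcript in kb, for 37 mitosis genes. Cenpe, Mki67 and Cenpf lie between 0.668 and 0.805 in both comparisons, and the other 34 genes lie between -0.112 and 0.335.

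Some members share sequence or exons with other genes, and the use of strand in counting is not given in the sources used here. Exons of 12 members overlap another annotated gene, among them Ube2c with Tnnc2, Ccna2 with Exosc9, Cdc20 with Elovl1 and Kif4 with Pdzd11, and reads there may belong to either gene. Ccnb1 has processed pseudogenes of 99.22% (Ccnb1-ps, 3 to 12 reads per library) and 98.14% identity (Gm12856, 2 to 9 reads). Ndc80 shares 95.05% over 303 bases with 2700099C18Rik, which held 91 to 190 reads per library. How shared reads were split between these genes is not known.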

How the data were processed

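RNA sequencing reads per gene were counted in 16 mouse libraries. The authors deposited 2 tables of raw counts, 1 per line, with 49585 Ensembl genes each, per the file headers. HTSeq and mm10 are named in the submitters' processing notes, while the aligner, annotation release and strand setting are not given in the sources used here. Libraries were grouped by their titles and descriptions.

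Symbols came from GENCODE M21 and matched 49326 identifiers. Unmatched identifiers held 0.00714% of counts. In edgeR 4.0.16 (R 4.3.3), genes were filtered with filterByExpr, scaled with TMM and tested with glmQLFit (robust) and glmQLFTest, two-sided, with Benjamini-Hochberg adjustment over all genes tested and a threshold of 0.05. Each line was fitted on its own 8 libraries, and the difference of the effects and the comparisons between lines on all 16. CPM values are counts divided by library sizes scaled with TMM over 16 libraries, and log2 CPM used a prior count of 2. Lists are described by counts and medians, with no test of a list. Promoter windows came from RefSeq (GRCm38.p6), and near-identical transcripts (at least 95% identity over 200 bases) from blastn 2.17.0. DESeq2 1.42.0, other scalings and filters, covariates and leaving out each library were the alternatives. The fitting scripts were tested on simulated data. The 37 genes, the lists and the tests were chosen with earlier results of these data known. Values in every library are given for 15 members named by role and for the 3 members with the smallest p in each comparison within a line and in the difference of the effects. From the other lists, the 2 genes with the highest CPM are named for activators, brakes, DNA replication and cell types.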

Additional observations from a re-analysis of the deposited data

Results flagged for a closer look

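Of 236 sets of 4 libraries examined (member genes and lists in each group), 20 held a library that stood apart from the other 3 by Dixon's criterion. Chance alone gives about 1 in 20 such sets, and the genes are not independent of each other. In 13 of the 20 the library was P2KO replicate 6. It was lowest of its group for Aurka (131.6 CPM against 163.7 to 167.5 in the other 3), Bub1b (203.1 against 234.9 to 239.8), Kif23 (170.8 against 202 to 206.2) and Kif4 (140.3 against 174.1 to 179.5). It was also lowest for Tpx2 (285.1 against 350.6 to 359.6), Ect2 (135.9 against 167.9 to 174) and Cdca8 (164.7 against 209.1 to 214.9). Summed levels in this library were low for the checkpoint and anaphase members (852.1 CPM against 1089 to 1118), the chromosomal passenger members (725.4 against 908.4 to 937.2), the spindle members (1058 against 1328 to 1343) and the midzone members (909.1 against 1122 to 1141). The same held for the other mitosis genes (7209 against 8639 to 8932) and the DNA replication genes (6412 against 8439 to 8740).

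Among the remaining libraries, P2WT replicate 4 was high for Ccnb1 (152.6 CPM against 131.8 to 132.7). P2H2WT replicate 18 was low for Cenpa (157 against 179.4 to 182.6), for the anaphase promoting complex subunits (1181 against 1243 to 1255) and for the T and NK list (75.14 against 87.32 to 89.46). P2H2KO replicate 15 was low for Pttg1 (13.47 CPM against 17.09 to 17.61). P2WT replicate 10 was high for the late granule list (49656 against 34356 to 35198), and P2KO replicate 9 for the megakaryocyte list (258.2 against 72.82 to 103.5).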

How the results depend on the processing

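No member was called in either line or in the difference of the effects under any alternative run, and in the P2 line the count of members above 0 stayed at 34 or more except with m libraries alone. No paired analysis was possible because no replicate number is shared between groups. Counts of genes called moved. In the P2 line 6 became 23 with DESeq2, 10 with all 16 libraries fitted and 1 with m libraries alone. In the P2H2 line 10 became 42 with DESeq2, 19 with the title number as covariate and 3 with m libraries alone, and leaving out 1 library gave 6 to 9. For P2WT against P2H2WT 32 became 9 with no filter, 0 with at least 10 counts in every library, 291 with DESeq2, 124 with the suffix as covariate (2 members called), 166 with the 2 groups alone and 21 with m libraries alone. Leaving out 1 library gave 0 without P2WT replicate 3, P2WT replicate 4, P2WT replicate 7 or P2H2WT replicate 13. It gave 1 without P2WT replicate 10 or P2H2WT replicate 16, and at most 182 (without P2KO replicate 9). For P2KO against P2H2KO 130 became 56 with at least 10 counts in every library, 422 with DESeq2, 210 with the suffix as covariate, 38 with the 2 groups alone and 9 with m libraries alone. Leaving out 1 library gave 38 (without P2H2KO replicate 15) to 179. The cause of these moves was not tested.

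With m libraries alone, members above 0 numbered 3 for P2KO against P2WT, 35 for P2H2KO against P2H2WT, 2 in the difference of the effects (median -0.132) and 8 between P2KO and P2H2KO (median -0.064). In the P2 line Kif11 (-0.058), Birc5 (-0.052), Cdk1 (-0.052), Top2a (-0.05), Cenpf (-0.136), Bub1 (-0.002), Mki67 (-0.083) and Ccnb1 (-0.047) then changed sign. In the P2H2 line Kif11 (0.149), Birc5 (0.072), Cdk1 (0.095), Top2a (0.113), Ccnb1 (0.04) and Espl1 (0.007) did so, as did Cdk1 (-0.14), Mki67 (-0.518) and Espl1 (-0.025) in the difference of the effects. In the P2H2 line the suffix as covariate put 23 members above 0 and reversed Kif11 (0.063), Cdk1 (0.016) and Top2a (0.043). In the difference of the effects it reversed Mki67 (-0.096). The title number as covariate put 0 members above 0 in the P2H2 line and reversed Cenpf (-0.138) and Mki67 (-0.279). Leaving out 1 library moved the members above 0 in the P2H2 line from 0 (without P2H2KO replicate 12) to 32 (without P2H2KO replicate 15), and those between P2WT and P2H2WT from 10 (without P2WT replicate 4) to 24. It also moved log2 fold changes in the P2H2 line across 0: Kif11 from -0.09 to 0.072, Birc5 from -0.175 to 0.002, Cdk1 from -0.111 to 0.066, Top2a from -0.094 to 0.042, Ccnb1 from -0.112 to 0.015, Cenpf from -0.046 to 0.29 and Mki67 from -0.173 to 0.331. In the difference of the effects Mki67 moved from -0.125 to 0.368. Each member had at least 375 reads in each library, and the members' median SE was 0.1 for P2KO against P2WT and 0.115 for P2H2KO against P2H2WT.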

Other observations

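Markers of other blood cells were described by the same counts. The monocyte markers lay below 0 in 10 of 10 in the P2 line, with a median log2 fold change of -0.307 and 0 called, and in 3 of 10 in the P2H2 line. Fn1 (fibronectin) had log2 fold changes of -0.398 (SE 0.191) and 0.045 (SE 0.287), and Mpeg1 (perforin-2) had -0.312 (SE 0.139) and 0.04 (SE 0.237). Their deviations ran against those of the mitosis genes, with r = -0.74 over 16 libraries. The 12 B lineage markers lay below 0 in 12 of 12 in the P2H2 line, with a median of -0.34 and 0 called. In mean log2 CPM they followed the mitosis genes with r = 0.82 over the 8 libraries of that line. The same r was 0.3 over the 8 libraries of the P2 line. These values by line use levels and not deviations, so they include the difference between the genotype groups. Cd79b, a chain of the B cell receptor, had -0.373 (SE 0.264) in the P2H2 line. In mean log2 CPM over the 8 libraries of the P2H2 line, the T and NK markers had r = 0.87 and the stem and progenitor markers r = 0.9. Over those of the P2 line the values were 0 and -0.13. The T and NK markers lay below 0 in 10 of 10 in the P2 line, with a median of -0.232, 3 with an unadjusted p under 0.05 and 0 called. The megakaryocyte markers lay above 0 in 9 of 9 in the P2 line (median 0.516) and in 8 of 9 in the P2H2 line (median 0.441), with 0 called in either. The mature neutrophil markers lay above 0 in 12 of 12 in the P2H2 line, with a median of 0.18 and 0 called. The part of these markers in the mitosis values was not tested. The 10 early granule markers lay above 0 in 10 of 10 in the P2H2 line, with a median of 0.165 and 0 called. In the P2 line 8 of 10 lay below 0, with 0 called. The 10 late granule markers also lay above 0 in 10 of 10 in the P2H2 line (median 0.163). In the P2 line 8 of 10 late granule markers lay below 0 (median -0.012), with 0 called in either line. Of the 12 mature neutrophil markers, 7 had negative values for P2KO against P2WT (median -0.006), as had 5798 of all 13734 genes. The signs of most markers in each of these neutrophil lists were thus opposite to those of most mitosis genes. For P2KO against P2WT the late granule and mature neutrophil medians were close to 0, so these lists showed no clear opposition there. Early granule deviations were nearly uncorrelated with those of the mitosis genes over 16 libraries (r = -0.03). With m libraries alone the mitosis directions reversed. Of the early granule markers, Mpo (myeloperoxidase) had -0.15 (SE 0.176) and 0.227 (SE 0.188), and Elane (neutrophil elastase) had -0.085 (SE 0.183) and 0.192 (SE 0.173).

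Among 58 mitosis genes outside the 37, 42 lay above 0 in P2WT against P2H2WT, beside 48.3% of all genes. In P2KO against P2H2KO 53 of the 58 lay above 0, beside 51.2% of all genes. A pair of motors was among those above 0 in both comparisons. Kif20b, a midzone kinesin, had log2 differences of 0.442 (SE 0.121, adjusted p = 0.138) between the wild-type groups and 0.416 (SE 0.12, adjusted p = 0.129) between the deficient groups, by edgeR's quasi-likelihood test. Kif15, a spindle motor, had 0.366 (SE 0.134, adjusted p = 0.315) and 0.427 (SE 0.134, adjusted p = 0.17). Neither passed the threshold, and both were named after their values were seen.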
